A study of Nicotiana tabacum with 9 samples.

Results

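Genes of phenylpropanoid entry and of the flavonoid backbone were followed in tobacco leaves grown at 3 light intensities. The set holds every gene whose best Swiss-Prot match, as given in the deposited table, was a phenylalanine ammonia-lyase, a chalcone--flavonone isomerase, a flavonol synthase, a naringenin 3-dioxygenase or a flavone 3'-O-methyltransferase. Glycosyl- and acyltransferases were left out. The text match found 7 of the 123 genes of the table, and all 7 passed the filter on low counts. Plants were of the cigar tobacco cultivar H382 (Nicotiana tabacum, an allotetraploid), sampled as leaves of seedlings kept at an intensity of 50, 100 or 200 µmol m-2 s-1, called light 50, 100 and 200 here. Each intensity had 3 libraries described as biological replicates, 9 in all. No other treatment is named for any group. The sources used here do not state the lamp type, the day length, the time under each intensity or whether a library pools plants.

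Phenylalanine ammonia-lyase removes ammonia from phenylalanine to give cinnamate, the entry to lignin, coumarins, chlorogenic acids and flavonoids. Flavonoid synthesis then runs from a chalcone through chalcone isomerase to the flavanone naringenin. A 3-hydroxylase turns naringenin into a dihydroflavonol, which flavonol synthase turns into a flavonol and which the anthocyanin branch also uses. Flavonols and related phenolics absorb ultraviolet light and act as antioxidants in leaves, and in tobacco leaves flavonol glycosides occur beside chlorogenic acid.

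Of the 2 phenylalanine ammonia-lyase genes, the one nearest the tobacco entry PALA (PAL-PALA, Nitab4.5_0000754g0260) lies on Nt24 from 27924035 to 27928253, and the one nearest the tobacco entry TPA1 (PAL-TPA1, Nitab4.5_0000101g0270) on Nt02 from 4274470 to 4278549. Chalcone--flavonone isomerase (CHI, Nitab4.5_0000027g0470) lies on Nt24 from 109075142 to 109077641. Probable chalcone--flavonone isomerase 3 (CHI3-like, Nitab4.5_0000375g0270) lies on Nt13 from 11234714 to 11237111, and its nearest entry is from Arabidopsis. Naringenin,2-oxoglutarate 3-dioxygenase (F3H, Nitab4.5_0000864g0050) lies on Nt17 from 205873881 to 205875531. Flavonol synthase/flavanone 3-hydroxylase (FLS, Nitab4.5_0005357g0020) lies on Nt12 from 40715554 to 40722943. Both dioxygenases have their nearest entry in petunia. Flavone 3'-O-methyltransferase 1 (OMT1-like, Nitab4.5_0000725g0060) lies on Nt24 from 26646211 to 26649748, 1274286 bases from PAL-PALA.

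Coordinates are as the deposited table gives them, and the sources used here name no genome build for it. The 7 genes fell on 5 chromosomes, with 3 on Nt24, which carried 7 of the 123 genes. F3H was on the minus strand and the other 6 were on the plus strand. The table's KEGG text names CHI, F3H, FLS and both ammonia-lyases as the same enzymes, but names OMT1-like as a caffeic acid 3-O-methyltransferase, an enzyme of lignin synthesis. Its Gene Ontology terms do not name the lyase reaction for either PAL gene: they give a glutamine gamma-glutamyltransferase for PAL-TPA1 and a metallopeptidase for PAL-PALA. The names of CHI, F3H, FLS and both PAL genes therefore rest on the Swiss-Prot and KEGG matches. To CHI3-like and OMT1-like the KEGG text assigns no orthology group, only a description, so their names rest on the Swiss-Prot match. Reads of near-identical copies, such as the homeologs of an allotetraploid or the PAL family, cannot be placed on 1 copy with certainty, and the library kit does not mark strand.

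Library totals, as recovered from the FPKM, lay between 12395758 and 16603534 reads. The 7 genes had between 124 and 13128 reads each in a library. The 123 genes are a chosen part of the transcriptome, holding between 4.63% and 7.37% of a library's total. The sources used here do not state how they were chosen. Shares, medians and ranks over all genes, and adjusted p-values, refer to these 123 genes in every comparison. The authors' deposited table marks nearly all of them as changed between light 200 and light 50. In the fit used here 122 of 123, or 99.2%, were called in either direction (edgeR's quasi-likelihood test, Benjamini-Hochberg adjusted over the 123 genes), so a call in that comparison says little about a gene. Levels per gene length are the authors' FPKM (fragments per kilobase of coding length, scaled to the library's total), and changes are log2 changes from edgeR on the authors' library scaling. Under other scalings the median change of all genes moved by up to 0.43 upward and 0.50 downward (log2) for light 200 against light 50. In bulk leaf RNA, a change in the share of cells that express a gene and a change in RNA per cell cannot be told apart.

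The libraries were ordered by light intensity for all 7 genes. In each gene, the 3 libraries of a brighter group lay above the 3 of each dimmer group by CPM, a separation upward that 47.2% of the 123 genes showed for light 200 against light 50, 39.8% for light 100 against light 50 and 29.3% for light 200 against light 100.

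The 2 genes at the entry rose by similar log2 amounts at each doubling of light. PAL-PALA had 104.7, 92.8 and 113.6 FPKM in the light 50 libraries, 201.5, 171.7 and 178.8 FPKM under light 100, and 401.2, 303.5 and 257.3 FPKM under light 200. The 3 groups did not overlap, and the spread was widest at light 200. Its log2 change was 0.76 ± 0.18 (SE; adjusted p = 0.00341, edgeR) for light 100 against light 50 and 0.72 ± 0.18 (adjusted p = 0.00658) for light 200 against light 100.

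PAL-TPA1 had 63.5, 47.8 and 56.9 FPKM in the light 50 libraries, 112.2, 128.9 and 127.2 FPKM under light 100, and 297.5, 264.6 and 205.9 FPKM under light 200. It too had no overlap between groups. Its level was 4.11-fold higher at light 200 than at light 50, against 2.79-fold for PAL-PALA. Light 200 replicate 1 was the highest and replicate 3 the lowest library of that group for both genes. PAL-TPA1 made up 44.5% ± 2.01 of the summed FPKM of both PAL genes at light 200, against 35.0% ± 2.37 at light 50 (SD, n = 3 each), and the 2 groups did not overlap.

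The 2 genes named as isomerases rose by unequal amounts. Chalcone isomerase closes the ring of the chalcone to form naringenin. CHI had 47.4, 37.3 and 50.2 FPKM in the light 50 libraries, 135.5, 201.8 and 129.6 FPKM under light 100, and 315.9, 283.5 and 236.8 FPKM under light 200. It rose 5.59-fold for light 200 against light 50, with a log2 change of 1.72 ± 0.21 (SE) for light 100 against light 50 and 0.76 ± 0.21 for light 200 against light 100. Light 100 replicate 2 stood above the other 2 libraries of its group.

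CHI3-like showed the largest change of the 7 genes. Its Arabidopsis counterpart belongs to the isomerase-like proteins that have no isomerase activity and enhance flavonoid production. It had 19.2, 26.3 and 40.6 FPKM in the light 50 libraries, 155.3, 246.4 and 179.9 FPKM under light 100, and 473.5, 562.3 and 472.6 FPKM under light 200. The groups were far apart, and the libraries at light 50 differed most in proportion, with a coefficient of variation of 38.1%. It rose 15.8-fold for light 200 against light 50, a log2 change of 3.98 ± 0.27 (SE; adjusted p = 1.25e-07, edgeR), the second highest of all 123 genes. For light 100 against light 50 its log2 change was 2.69 ± 0.26 (SE), and for light 200 against light 100 it was 1.29 ± 0.24. CHI3-like made up 64.4% ± 3.79 of the summed FPKM of CHI and CHI3-like at light 200, against 38.3% ± 8.41 at light 50 (SD, n = 3 each).

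The 2 dioxygenase genes rose by nearly equal amounts over the full range, from different levels. F3H, which makes dihydroflavonols, had 17.7, 13.5 and 13.8 FPKM in the light 50 libraries, 34.6, 52.6 and 36.1 FPKM under light 100, and 104.6, 98.0 and 86.2 FPKM under light 200. FLS, which makes flavonols, had 78.9, 61.5 and 77.2 FPKM in the light 50 libraries, 240.6, 283.2 and 226.3 FPKM under light 100, and 516.0, 490.0 and 444.5 FPKM under light 200. No groups overlapped for either gene. The log2 change for light 200 against light 50 was 2.53 ± 0.21 (SE) for F3H and 2.58 ± 0.17 for FLS. For light 200 against light 100, F3H rose 2.21-fold and FLS 1.83-fold.

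OMT1-like had the lowest log2 change of the 7 genes over the full range of light, 1.44 ± 0.16 (SE), beside 1.48 ± 0.18 for PAL-PALA. Its Arabidopsis counterpart adds methyl groups to flavonols and to lignin precursors. It had 19.0, 16.8 and 16.1 FPKM in the light 50 libraries, 36.7, 42.2 and 34.2 FPKM under light 100, and 56.5, 52.3 and 47.1 FPKM under light 200. The 3 groups were separate, but the last doubling was small. The log2 change was 1.05 ± 0.16 (SE; adjusted p = 0.000168, edgeR) for light 100 against light 50. For light 200 against light 100 it was 0.38 ± 0.16, with a 95% interval of 0.04 to 0.72 and an adjusted p of 0.0508 in edgeR, which misses the threshold of 0.05. It was called with TMM (adjusted p = 0.00595), with RLE factors (adjusted p = 0.00464) and with library totals (adjusted p = 0.0159), and over all alternatives the adjusted p ran from 0.00464 to 0.463. It was also called with only the 2 groups compared in the fit. Leaving out light 50 replicate 1, light 50 replicate 3, light 100 replicate 2 or light 200 replicate 3 also gave a call. In all, 8 of the 18 alternatives called it. DESeq2, median centring, both other filters and the replicate block did not.

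**Figure D1:**
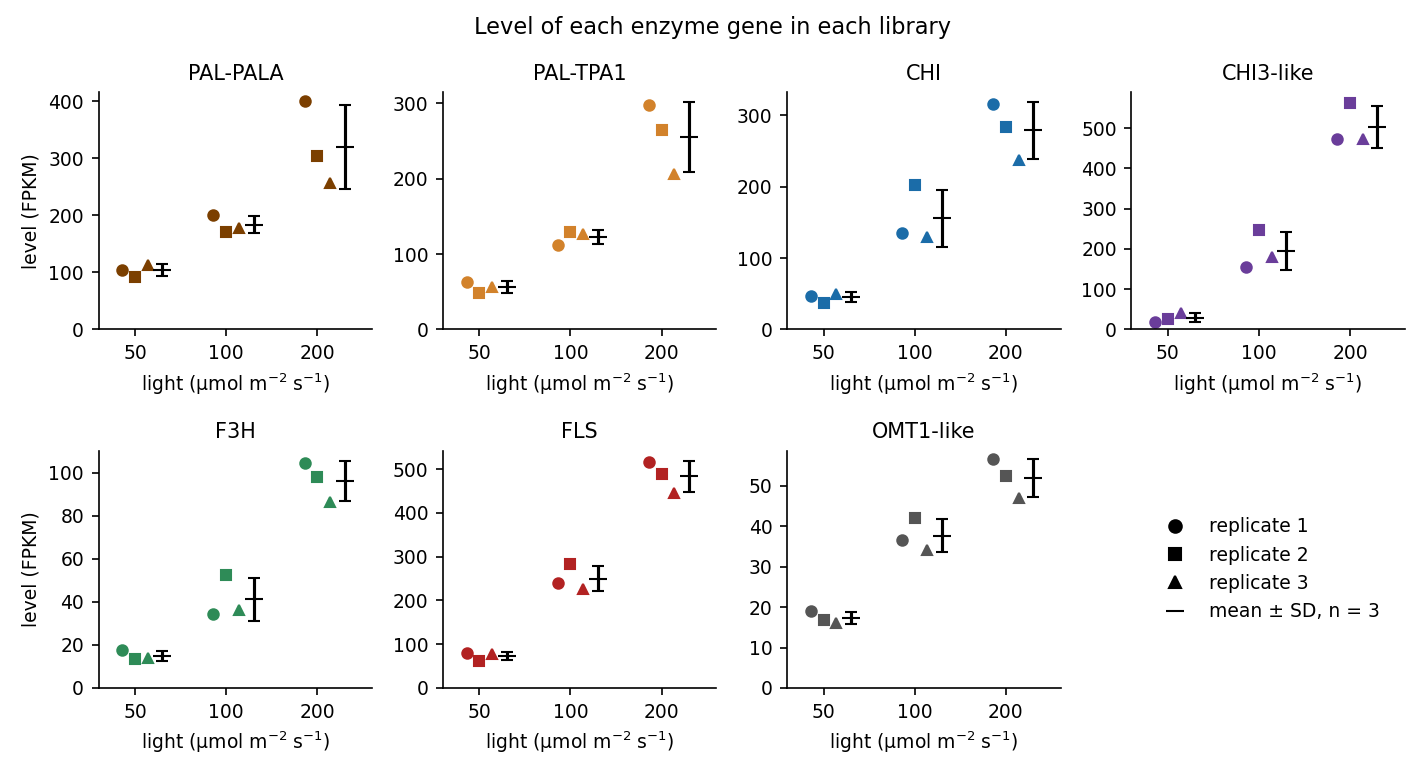
Level of each of the 7 genes (FPKM, axes from 0) in every library at 50, 100 and 200 µmol m-2 s-1. Symbols mark replicates, bars the mean ± SD (n = 3). In all 7 panels the 3 groups are separate, with CHI3-like between 19.2 and 40.6 FPKM at light 50 and between 472.6 and 562.3 at light 200.

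For light 200 against light 50, 7 of 7 genes were called higher, where 47.2% of all 123 genes were called higher. The median log2 change of the 7 genes was 2.48, and that of all genes was -0.58. The log2 change ran from 1.44 ± 0.16 (SE) in OMT1-like to 3.98 ± 0.27 in CHI3-like. The 7 genes ranked between second and 22nd of 123 by this change. Since nearly all genes of the table are called in this contrast, nothing is read from the calls.

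For light 100 against light 50, 7 of 7 genes were called higher, against a background of 42.3% of all genes. The median log2 change was 1.39 for the 7 genes and -0.18 for all genes. CHI and FLS each rose by a log2 change of 1.72 and CHI3-like by one of 2.69. Both PAL genes, F3H and OMT1-like rose by between 0.76 and 1.39. The authors' deposited table marks the 7 genes as higher at light 100, with adjusted p from 1.47e-18 for FLS to 0.0028802 for F3H, where it marks 23.6% of its genes as higher.

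For light 200 against light 100, 6 of 7 genes were called higher, against 21.1% of all genes, and OMT1-like was the exception. The median log2 change was 0.87 for the 7 genes and -0.20 for all genes. CHI3-like and F3H had the highest values, with log2 changes of 1.29 and 1.14. CHI was no longer called without light 100 replicate 3 (adjusted p = 0.0558, edgeR). The authors' deposited table, adjusted over more genes, marks 4 of the 7 as higher and 11.4% of its genes. PAL-PALA (adjusted p = 0.24919), CHI (0.08724) and OMT1-like (0.36165) are not marked there.

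**Figure D2:**
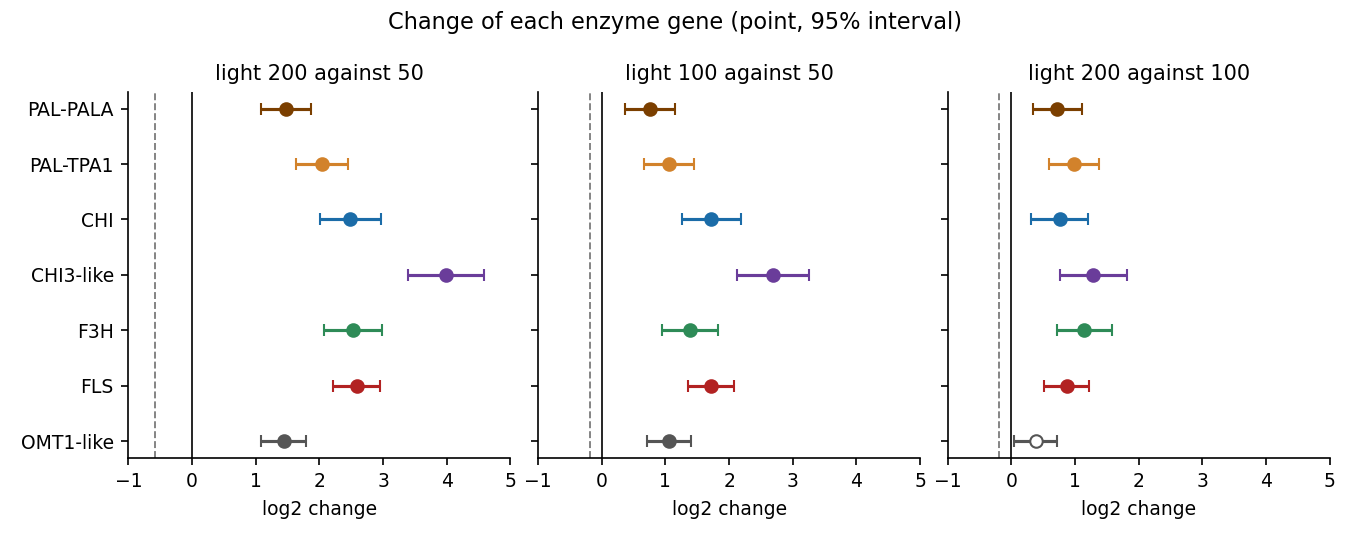
Log2 change of the 7 genes with its 95% interval for light 200 against 50, 100 against 50 and 200 against 100. Filled points have an adjusted p under 0.05 (edgeR), the open point is OMT1-like at 0.0508, and the dashed line is the median of all 123 genes.

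The share of the full change that fell in the first doubling varied among the genes. Between 66.4% and 73.4% of the log2 change over the full range fell in the first doubling for FLS, CHI3-like, CHI and OMT1-like. For PAL-PALA, PAL-TPA1 and F3H it was between 51.2% and 54.8%. The step difference, the log2 change of the second doubling minus that of the first, was -1.40 ± 0.41 (SE; adjusted p = 0.0763, edgeR) for CHI3-like, -0.97 ± 0.35 for CHI (adjusted p = 0.147), -0.85 ± 0.27 for FLS (adjusted p = 0.113) and -0.67 ± 0.27 for OMT1-like (adjusted p = 0.194). For PAL-PALA it was -0.04, with a 95% interval of -0.70 to 0.63, and for PAL-TPA1 and F3H it was -0.08 and -0.24.

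No step difference of the 7 genes was called by edgeR, where 2.44% of all genes were called, and 4 of the 7 had an unadjusted p under 0.05, where 15.4% of all genes had. DESeq2 called 1 of the 7, CHI3-like (adjusted p = 0.0185), and 7.32% of all genes. With TMM, CHI, CHI3-like, FLS and OMT1-like were called, with 18.7% of all genes, and the median step difference of all genes was -0.31, beside -0.17 with the authors' scaling. In edgeR, CHI3-like was called without light 50 replicate 3 (adjusted p = 0.0237), where 3.25% of all genes were, and FLS without light 50 replicate 1 (adjusted p = 0.0452), where 11.4% were.

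The order of the levels changed with light. At light 50, PAL-PALA was highest with a mean of 103.7 FPKM, above FLS, PAL-TPA1, CHI and CHI3-like, and OMT1-like and F3H were lowest with 17.3 and 15.0. Libraries of FLS and PAL-TPA1, of PAL-TPA1 and CHI, of CHI and CHI3-like, and of OMT1-like and F3H overlapped. At light 100, FLS led with 250.1 FPKM, but it overlapped CHI3-like, which overlapped PAL-PALA, which overlapped CHI. PAL-TPA1 stood just below these at 122.8, and well above F3H and OMT1-like, which overlapped. At light 200, CHI3-like (502.8 FPKM) and FLS (483.5) overlapped each other and stood above PAL-PALA, CHI and PAL-TPA1, each of which overlapped the next, and then F3H and OMT1-like.

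Summed over the 7 genes, the level was 338.3 ± 37.7 FPKM at light 50, 985.2 ± 122.8 at light 100 and 1990 ± 214.8 at light 200 (SD, n = 3). They took 0.0504%, 0.122% and 0.237% of the library total behind the FPKM on average at the 3 intensities. Both PAL genes made up 47.3% ± 0.90 of that sum at light 50, 31.5% ± 4.18 at light 100 and 28.8% ± 3.07 at light 200. The share of CHI3-like was 8.46% ± 2.81, 19.5% ± 2.47 and 25.4% ± 3.08 at the same intensities. The share of FLS stayed between 20.8% and 26.3% and that of CHI between 12.6% and 17.9% in every library.

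**Figure D3:**
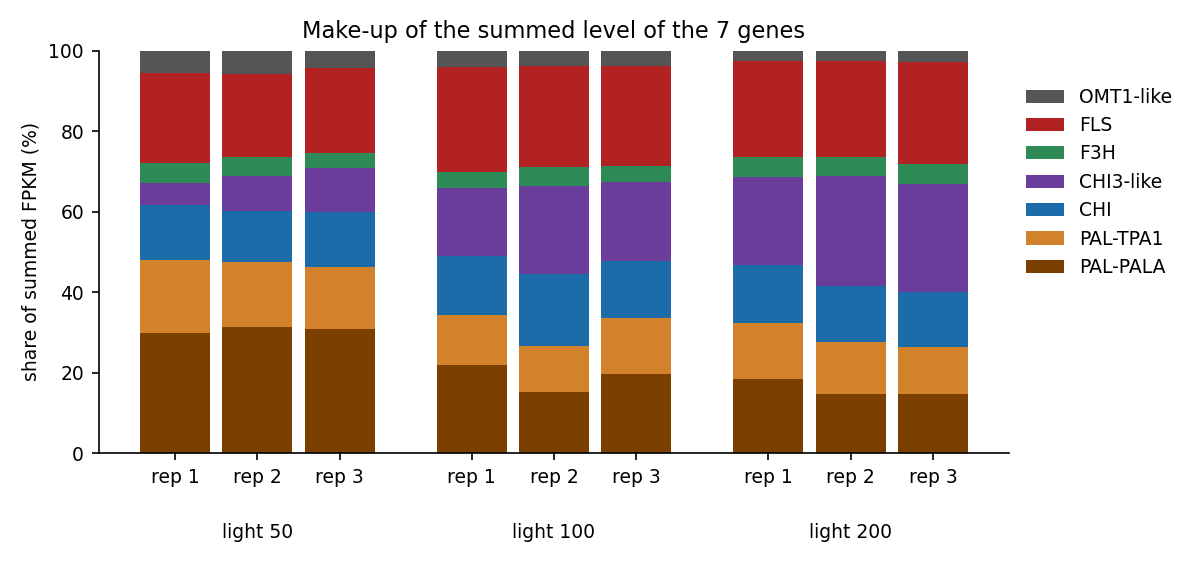
Share of each gene in the summed FPKM of the 7 genes, in percent, for each library at light 50, 100 and 200. Both PAL genes (lowest bands) hold between 46.3% and 48.0% at light 50 and between 26.5% and 32.3% at light 200, and CHI3-like between 5.47% and 11.0% at light 50 and between 21.9% and 27.4% at light 200.

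Whether the genes changed by different amounts was tested on the ratio of 2 genes within a library, which no scaling of a library can move. All 21 pairs were compared across the 3 intensities by an exact permutation test over the 9 libraries (1680 assignments, smallest possible p 0.00357), with p adjusted over the 21 pairs. Of these, 14 were called, and 16 had an unadjusted p under 0.05. Pairs of other genes of the table were not tested, so this count has no background share. Whether such a count is particular to these enzyme genes was not tested. CHI3-like differed from each of the other 6 genes. The log2 ratio of CHI3-like to FLS was 0.05 ± 0.16 at light 200, against -1.39 ± 0.58 at light 50 (SD, n = 3; exact permutation adjusted p = 0.0125). The log2 ratio of CHI to CHI3-like was -0.86 ± 0.24 at light 200, against 0.70 ± 0.53 at light 50, so the order of these 2 genes turned round.

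PAL-PALA changed less than CHI, F3H and FLS, with log2 ratios to them that differed by -1.02, -1.08 and -1.13 between light 200 and light 50 (exact permutation adjusted p = 0.0429, 0.0312 and 0.03). PAL-TPA1 changed less than CHI and FLS over the full range, by differences of -0.45 and -0.56 (exact permutation adjusted p = 0.0312 and 0.0346). These lay in the first doubling (-0.63 and -0.65), while the second doubling gave 0.19 and 0.09. Each p given for a pair is for all 3 intensities. OMT1-like changed less than CHI, F3H and FLS, whose log2 ratios to it were higher at light 200 by 1.05, 1.10 and 1.16 (adjusted p = 0.0125 each). Of the 14 called pairs, 8 remained called with any 1 library left out: the 3 of OMT1-like just given and those of CHI3-like with PAL-PALA, PAL-TPA1, CHI, FLS and OMT1-like. The call for CHI3-like to F3H was lost when any library of light 100 or light 200 was left out (adjusted p at most 0.08). That for PAL-PALA to CHI was lost without any library except light 100 replicate 2, and that for PAL-PALA to F3H without any except light 100 replicates 1 and 2. PAL-TPA1 to CHI was lost without light 50 replicate 1 or 2 or light 200 replicate 1 or 3, PAL-TPA1 to FLS without light 200 replicate 1, and PAL-PALA to FLS without light 200 replicate 3.

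The other 7 pairs were not called. For CHI, F3H and FLS the full range of light gave small differences. The mean ratios of F3H to CHI and to FLS were shifted more at light 100, but libraries of light 100 overlapped those of light 50. Between light 200 and light 50, the log2 ratio of CHI to FLS differed by -0.11 ± 0.07 (SE; exact permutation adjusted p = 0.571), that of F3H to FLS by -0.06 ± 0.11 (adjusted p = 0.075) and that of CHI to F3H by -0.05 ± 0.14 (adjusted p = 0.0829). These p-values are for all 3 intensities. Between light 100 and light 50, the log2 ratio of F3H to FLS differed by -0.35 and that of CHI to F3H by 0.34, and between light 200 and light 100 they differed by 0.29 and -0.39. The ratio of PAL-PALA to PAL-TPA1 differed by -0.57 ± 0.11 (adjusted p = 0.0563, exact permutation) with no overlap between light 200 and light 50. In all, 9 pairs were called when light 200 replicate 1 was left out, and 9 when replicate 3 of that group was.

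**Figure D4:**
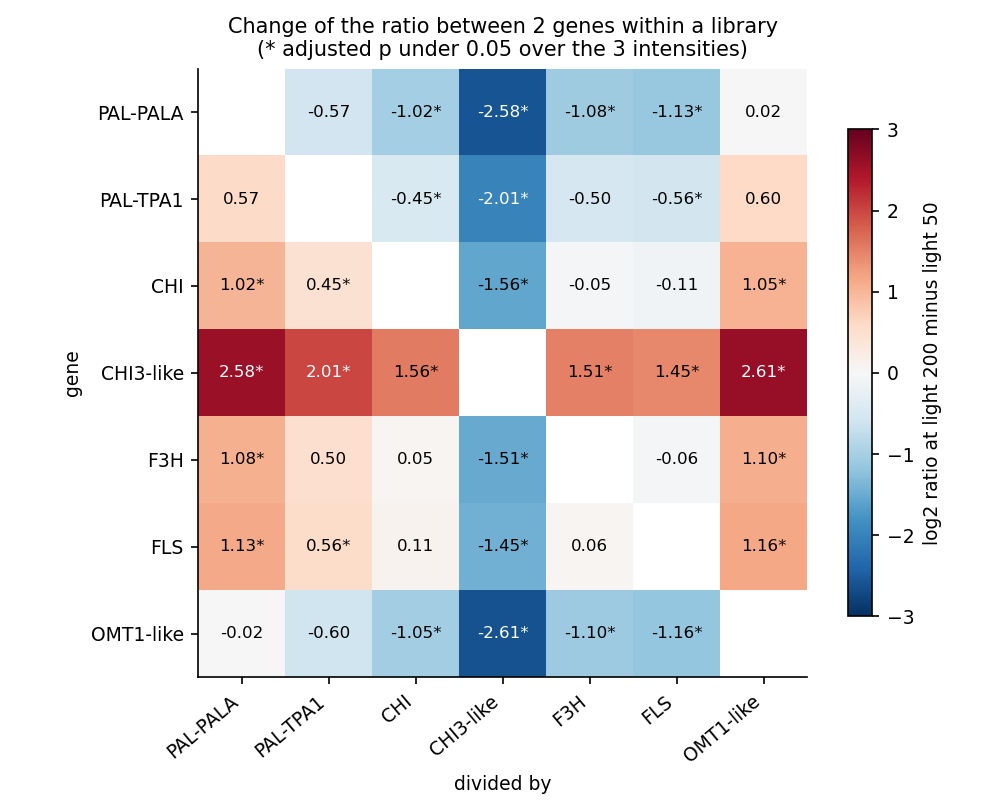
Difference between light 200 and light 50 in the log2 ratio of the gene in the row to the gene in the column, from counts per coding length within a library (means of 3 libraries per group). Asterisks mark the 14 called pairs (exact permutation test over the 3 intensities, adjusted p under 0.05). The row of CHI3-like holds the highest values, from 1.45 against FLS to 2.61 against OMT1-like.

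Several genes shared their highest or lowest library within a group. At light 200, replicate 3 was the lowest library by CPM for 7 of the 7 genes, and replicate 1 the highest for 6, CHI3-like being the exception. Of all 123 genes, 68.3% were lowest in that replicate 3 and 45.5% highest in that replicate 1. With TMM replicate 3 was the lowest for 4 of the 7 and for 36.6% of all genes. With median centring it was the lowest for 2 of the 7 and for 24.4% of all genes. At light 100, replicate 2 was the highest for 6 of the 7, all except PAL-PALA, for which it was the lowest, and for 48.8% of all genes. At light 50, replicate 2 was the lowest for 5 of the 7 and for 42.3% of all genes.

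Other genes were taken from lists of Swiss-Prot product names drawn up for the pathway. The lists for the hydroxycinnamate and lignin branch and for shikimate and phenylalanine supply matched 0 of the 123 genes by these names. OMT1-like, whose KEGG text names an enzyme of lignin synthesis, was not matched by them. The list of flavonoid core and anthocyanin genes matched 6 besides FLS. Each of the 6 was called higher for light 200 against light 50 and for light 100 against light 50, where 47.2% and 42.3% of all 123 genes were. For light 200 against light 100, 3 were called higher, where 21.1% of all genes were: both genes named anthocyanidin 3-O-glucosyltransferase and the UDP-glycosyltransferase 86A1. The last of these lost its call without light 100 replicate 1 or 3 or light 200 replicate 1 or 2 (adjusted p up to 0.135, edgeR) and with median centring, which left 2 of the 6 called. With TMM, RLE factors or library totals, 5 of the 6 were called for light 200 against light 100, the acyltransferase and the 74E2 gene Nitab4.5_0002356g0020 being added, and likewise without light 100 replicate 2. Without light 200 replicate 3 the acyltransferase alone was added. An anthocyanidin 3-O-glucosyltransferase (Nitab4.5_0000403g0080), which adds glucose to anthocyanidins, had a log2 change of 3.98 ± 0.26 (SE) for light 200 against light 50, and a second one (Nitab4.5_0001043g0030) of 3.20 ± 0.25. Anthocyanin 5-aromatic acyltransferase (Nitab4.5_0001256g0060) had one of 2.04 ± 0.17. The other 3 were UDP-glycosyltransferases, whose product names give no flavonoid substrate. Of these, 86A1 (Nitab4.5_0003524g0010) had a log2 change of 4.97 ± 0.39, from only 8 to 15 reads per library at light 50. The 2 genes named 74E2 had changes of 1.33 and 1.28. The median of the 6, the 3 UDP-glycosyltransferases included, was 2.62 for light 200 against light 50, beside 2.48 for the 7 enzyme genes.

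The list of regulators and light signalling matched 1 gene, the transcription factor UNE12 (Nitab4.5_0000187g0130), a bHLH protein in Arabidopsis. It had 64.9 ± 0.08 FPKM at light 200, against 36.8 ± 1.27 at light 50 (SD, n = 3 each). Its log2 change of 0.67 ± 0.13 (SE; adjusted p = 0.000405, edgeR) was lost with median centring (0.16, adjusted p = 0.335).

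By the root mean square difference of centred log2 CPM profiles over the 9 libraries, the profile nearest the mean of the 7 genes was that of granule-bound starch synthase 2 (Nitab4.5_0002980g0050), at 0.18. It was followed by 1-aminocyclopropane-1-carboxylate oxidase (Nitab4.5_0000091g0420), which makes ethylene, at 0.22, and by anthocyanin 5-aromatic acyltransferase at 0.23. Early light-induced protein (Nitab4.5_0000977g0030), a chloroplast protein of high light, stood at 0.26 and aspartate racemase (Nitab4.5_0002257g0010) at 0.28. All libraries share the order of light intensities, so this likeness is a description. Among the 7 genes, FLS, CHI and F3H lay closest to the mean profile (0.12, 0.13 and 0.17), and CHI3-like farthest from it (0.76).

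CHI and FLS were each other's nearest gene of the whole table, at 0.12, and the nearest gene of F3H was FLS. CHI3-like was nearest to the anthocyanidin 3-O-glucosyltransferase Nitab4.5_0000403g0080, at 0.28. PAL-PALA and OMT1-like were both nearest to a beta-glucosidase (Nitab4.5_0001505g0020), at 0.18 and 0.11, and PAL-TPA1 to granule-bound starch synthase 2, at 0.26.

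**Figure D5:**
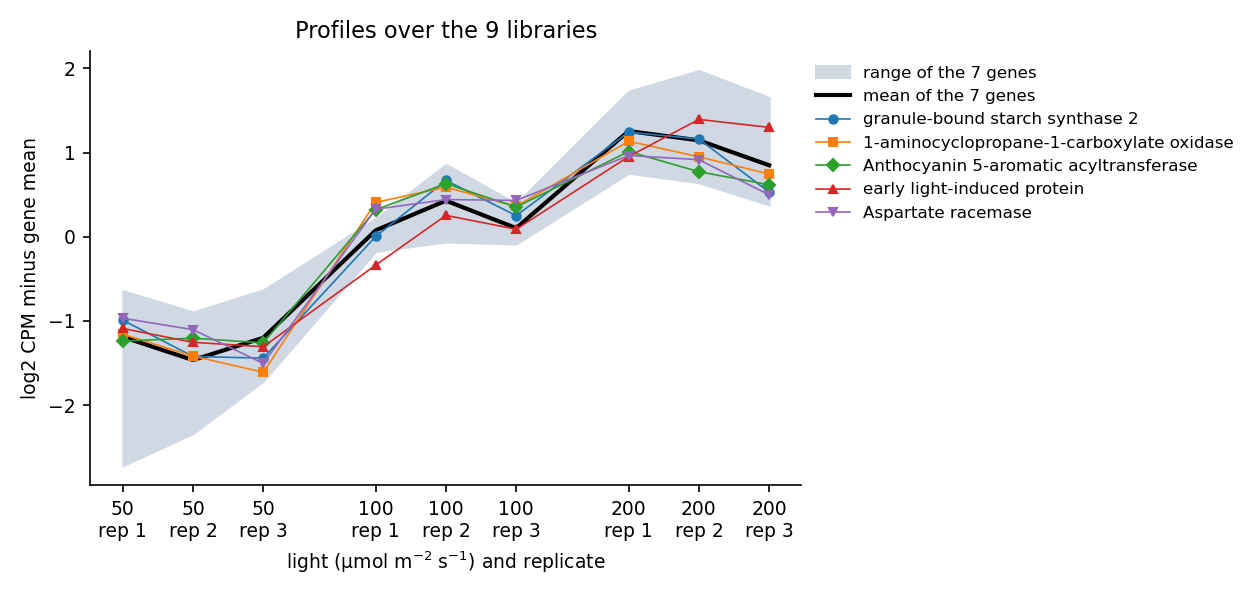
Log2 CPM of each gene minus its mean over the 9 libraries, for the 5 genes nearest the mean profile of the 7 enzyme genes. The black line is that mean and the band the range of the 7 genes, which is widest in light 50 replicate 1, where CHI3-like lies lowest.

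The leaf label was checked against 16 chlorophyll a-b binding and photosystem genes, whose summed level lay between 22420 and 51620 CPM in the 9 libraries. Their sum was between 22420 and 28160 CPM at light 200, against 42810 to 51620 at light 50, and 16 of 16 were called lower, where 52.0% of all 123 genes were. Marker lists of other tissue matched 1 gene each, by product name only. A lipid-transfer protein of the trichome list (Nitab4.5_0000125g0030) had 13.5 to 17.7 CPM at light 200, against 40.8 to 65.9 at light 50. The tubulin beta-1 chain of the cell division list (Nitab4.5_0001951g0080) had 28.6 to 38.2 CPM at light 200, against 79.1 to 126.7 at light 50. Berberine bridge enzyme-like 8 of the root and nicotine list (Nitab4.5_0000009g0310) had 3.98 to 7.50 CPM at light 200, against 0.606 to 1.32 at light 50. The part of these shifts in the rise of the 7 genes was not tested.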

How the data were processed

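RNA of 9 leaf samples was sequenced. Per the labels' protocols, the kit was NEBNext Ultra. CASAVA 1.7, HISAT and HTSeq appear in the submitters' processing notes without a role. The raw read counts per gene are the authors' deposited values, per the file headers, and so are the FPKM, the log2 fold changes (lower over brighter light, so negative means higher in the brighter light) and the p-values and adjusted p-values. The authors' mean normalised counts per group, per the file headers, were solved for their size factors (relative error at most 5.0e-10). These set effective library sizes, because TMM assumes mostly unchanged genes. Library totals were recovered from count, FPKM and gene length, so they are the totals behind the FPKM and need not be all reads sequenced.

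The test was edgeR 4.0.16 quasi-likelihood (R 4.3.3, glmQLFit then glmQLFTest, two-sided) over the 9 libraries, modelling light intensity alone, with filterByExpr and Benjamini-Hochberg adjustment over 123 genes at 0.05. CPM values use the effective sizes. Pair ratios are log2 of (count + 0.5) per coding length, with two-sided exact permutation. Both steps were tested on simulated data. Alternatives were TMM, RLE factors, library totals, median centring, 2 filters, DESeq2 1.42.0, only the groups compared, a replicate block and each library left out. For likeness, the genes of the pathway lists and the order of libraries within a group, the alternatives were chosen after seeing the data. Libraries of a group differed by more than sampling noise (chi-square at least 23.6 times its degrees of freedom). The members and lists were chosen with earlier results of these data known. All genes matching the members' text rule and the pathway lists are named, and for likeness the 5 nearest genes and each member's nearest gene. The reference gene table matched 0 identifiers, and no sequence is printed.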

Additional observations from a re-analysis of the deposited data

How the results depend on the processing

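The 7 genes kept their direction and their side of the threshold for light 200 against light 50 and for light 100 against light 50 under all alternatives. For light 200 against light 100 the number called lay between 5 and 7 with 1 library left out. The number with a called step difference was 0, but 4 with TMM, 1 with DESeq2, and 0 to 1 with 1 library left out, and the cause was not tested. The step differences of PAL-PALA and PAL-TPA1 were 0.119 and 0.079 with RLE factors, and with 1 library left out they ran from -0.243 to 0.119 and from -0.218 to 0.073, and that of F3H from -0.477 to 0.209. The number of called pair ratios was 14 with a pseudocount of 5 and with the authors' FPKM, and 9 to 17 with 1 library left out. With 1 library left out the change of the log2 ratio ran from -0.089 to 0.14 for PAL-PALA to OMT1-like, from -0.132 to 0.086 for CHI to F3H and from -0.161 to 0.0 for F3H to FLS. With median centring the second doubling of the 74E2 gene Nitab4.5_0001704g0090 was -0.002.

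Replicate numbers recur in the 3 groups. Same-numbered pairs of libraries had correlations of their deviations from -0.443 to 0.55, above 0.1 in 4 of 9 pairs. Of the libraries, 4 of 9 were closest to their own number. With so few libraries, these values cannot tell whether same-numbered libraries share more than a number. With the number as a replicate block, 7, 7, 6 and 0 genes were called in the 3 comparisons and for the step difference, as without it. Permuting within replicate number called 0 pair ratios: the smallest p of its 216 assignments is 0.0278, which 10 of 21 pairs reached, giving an adjusted p of 0.0583. With 3 libraries per group the spread within a group is itself poorly known.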
